A study of Mus musculus with 203 samples.

Results

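The type I interferon antiviral effector genes are 39 genes that cells switch on when interferon binds its receptor. They were chosen by symbol from textbook knowledge of the interferon response, with earlier results of these data known, and all 39 had a row among the 25094 genes of the RAW cell expression table. All 39 also had a row among the 16478 genes of the table from bone marrow-derived macrophages (BMDMs), which holds comparisons between groups without values per sample and was used here for gene models only. The values below come from RAW264.7 cells (RAW cells), a macrophage line that the labels give as BALB/c, carrying a lentiviral shRNA against GFP (shGFP, the control line) or against Kdm1a (shKDM1A). Each line was left untreated (control) or was treated with IL4 at 20 ng/ml for 6 h, with 4 RNA-seq libraries in each of the 4 groups. All 4 groups thus carry a lentiviral vector and went through puromycin selection as stable lines. The study's methods name 1 Kdm1a hairpin, so an effect of lower Kdm1a and any other difference between the 2 stable lines cannot be told apart. The study's methods describe its experiments in general as biologically replicated. The labels do not say which libraries came from separate cultures, and the p-values measure only the spread between these libraries.

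Type I interferon binds a receptor of IFNAR1 and IFNAR2, whose kinases JAK1 and TYK2 phosphorylate STAT proteins, STAT2 among them. Together with IRF9 these form a complex that binds the interferon-stimulated response element (ISRE) near its target genes, and IRF7, itself a target, amplifies the response. The targets include proteins that recognise viral RNA, block virus entry or exit, starve virus replication of nucleotides or tune the response itself. Macrophages keep many of them at a measurable level without infection. KDM1A (also LSD1) is a histone lysine demethylase and a subunit of chromatin complexes. IL4 acts through STAT6 and drives alternative macrophage activation, and the study asked how KDM1A takes part in it.

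The sequence feature that these genes are known to share was looked for in their promoters, as RefSeq gives them on GRCm38.p6 from 250 bases before to 50 bases after the start. Of the 39 genes 31 were matched by symbol. The ISRE core was searched as GAAANNGAAA, or TTTCNNTTTC on the other strand, and matches were allowed to overlap. It lay in the promoter of 15 of the 31 genes (48.39%), beside 1079 of all 27025 genes of the table (3.993%) and 3.443% of its 32851 promoters. The palindromic STAT sites TTCNNNNGAA and TTCNNNGAA each lay in 6 of the 31 (19.35%), beside 8.007% and 9.554% of all genes. Only stretches with matches upstream of the start are shown, for genes from several branches of the response. The matched bases are in capitals, with 20 bases on either side where these lie before the start. Not every match lay upstream. The matches of Ifitm3 began 2 and 19 bases after the start. The last match of Lgals9 began 15 bases after it, and that in another promoter of Trim30a 2 bases after it. Bst2 and Oas1a show overlapping matches that run into 1 longer block, Isg15 shows 3 such matches in a row, Ifit1 and Ifit3 show 2 separate ones, and Slfn8 holds a match although it was not called higher in shKDM1A cells without IL4.
Bst2 (chr8:71537567-71537622, minus strand): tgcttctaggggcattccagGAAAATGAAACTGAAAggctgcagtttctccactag
Ifit1 (chr19:34640765-34640833, plus strand): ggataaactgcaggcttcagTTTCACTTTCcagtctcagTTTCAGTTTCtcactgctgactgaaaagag
Ifit3 (chr19:34583353-34583436, plus strand): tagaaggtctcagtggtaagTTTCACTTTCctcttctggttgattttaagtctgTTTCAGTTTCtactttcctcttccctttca
Isg15 (chr4:156200855-156200916, minus strand): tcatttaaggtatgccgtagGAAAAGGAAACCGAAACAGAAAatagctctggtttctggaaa
Oas1a (chr5:120907526-120907565, minus strand): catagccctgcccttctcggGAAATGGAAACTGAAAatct
Oas3 (chr5:120777705-120777754, minus strand): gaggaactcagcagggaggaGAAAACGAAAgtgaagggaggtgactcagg
Stat2 (chr10:128270256-128270305, plus strand): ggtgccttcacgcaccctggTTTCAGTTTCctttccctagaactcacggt
Trim30a (chr7:104465200-104465249, minus strand): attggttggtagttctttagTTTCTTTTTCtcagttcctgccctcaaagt
Slfn8 (chr11:83020829-83020878, minus strand): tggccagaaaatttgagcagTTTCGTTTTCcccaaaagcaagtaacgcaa

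The stretch of Ifit3b was the same as that of Ifit3 letter for letter. No ISRE core was found in the RefSeq window of Ifi44 or Oasl2, the 2 genes with the largest changes in the knockdown line without IL4. A match of letters is a description and was not tested as a binding site. The other 8 of the 39 genes are Ifi27, Mx1, Mx2, Oas2, Parp14, Parp9, Rtp4 and Usp18.

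The values are log2 expression values of a DESeq2-based table made by the authors with HOMER, whose transformation is not named. Changes of all genes narrow at the weakly expressed end, where the change of a gene may be understated. The 16 libraries held between 17554721 and 27782568 tags. Groups were compared with limma over the 12905 genes that reached 1 or more in 4 or more of the libraries, p-values were adjusted over all of these by Benjamini-Hochberg, and a gene was called at an adjusted p under 0.05. All 39 genes passed this filter, none by a single group alone, since the lowest group mean was 3.66, for Mx1 in shGFP cells with IL4. In shKDM1A cells with IL4, replicates 1 and 3 stood closer to each other, and 2 and 4 to each other, than across (median absolute difference over genes 0.0441 and 0.0392 within the pairs, 0.0536 to 0.0561 across), so results that use this group are also given without either pair. Of 7 macrophage markers 6 were expressed, with values up to 17.18 for Lyz2, and Mertk was near the floor of the scale in every library. All but Adgre1 of the 6 were higher in shKDM1A cells, by 0.11 (Spi1) to 0.41 (Itgam) without IL4 and by 0.14 (Cd68) to 0.68 (Lyz2) with IL4. Adgre1 was lower, at -0.11 and -0.44. IL4 raised Adgre1 (1.24 in shGFP, 0.90 in shKDM1A cells) and Csf1r (0.26 and 0.28) in both lines and lowered Lyz2 (-0.53 and -0.12), and Itgam fell in shKDM1A cells (-0.19). The difference of the IL4 effect was called for Lyz2 (0.42), Adgre1 (-0.33) and Itgam (-0.16). The part of these changes in the results was not tested. Of 24 markers of T, B, plasmacytoid dendritic, neutrophil, fibroblast and epithelial cells 21 did not pass the filter, Siglech and S100a8 stayed near 1.2, and Tcf4 was expressed at 10.24 to 10.48 on group average. Tcf4 was higher in shKDM1A cells, by 0.24 on the log2 scale without IL4 (SE 0.03, adjusted p = 1.1e-05) and by 0.09 with IL4 (SE 0.03, adjusted p = 0.028). IL4 raised it by 0.15 in shGFP cells (SE 0.03, adjusted p = 0.0018), and its estimate with IL4 in shKDM1A cells was -0.0014 (adjusted p = 0.98). Its part in the results was not tested. In bulk RNA a change in the share of cells that express a gene and a change in RNA per cell cannot be told apart. Of 8 IL4 response genes 6 were tested, of which IL4 raised 5 in shGFP cells and 4 in shKDM1A cells, beside 13.1% and 13.6% of all genes tested.

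Kdm1a, the targeted gene, was read at 11.21, 11.23, 11.13 and 11.17 in the shGFP control libraries and at 10.36, 10.32, 10.23 and 10.29 in the shKDM1A control libraries. With IL4 the values were 11.12, 11.10, 11.12 and 11.07 in shGFP cells and 10.32, 10.33, 10.34 and 10.28 in shKDM1A cells. Every shKDM1A library lay below every shGFP library. The log2 fold change was -0.88 (SE 0.03, adjusted p = 5.6e-13) without IL4 and -0.79 (SE 0.03, adjusted p = 2.2e-12) with IL4.

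The first comparison asked how the knockdown line differed from the control line without IL4. Of the 39 antiviral effector genes 37 were higher in shKDM1A cells, where 19.7% of all genes tested were called higher, 1 (Ifi27) was lower, where 18.4% of all genes were called lower, and 1 (Slfn8) was not called. The median log2 fold change of the 39 genes was 0.75, beside a median of 0.00 over all genes tested. In 36 of the 39 genes every shKDM1A library lay above every shGFP library, as in 19.6% of all genes tested. The estimates were at least 1 for 9 genes and at least 0.5 for 31. The changes ran through every branch of the response, from sensors of viral RNA to the ISG15 system.

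**Figure D1:**
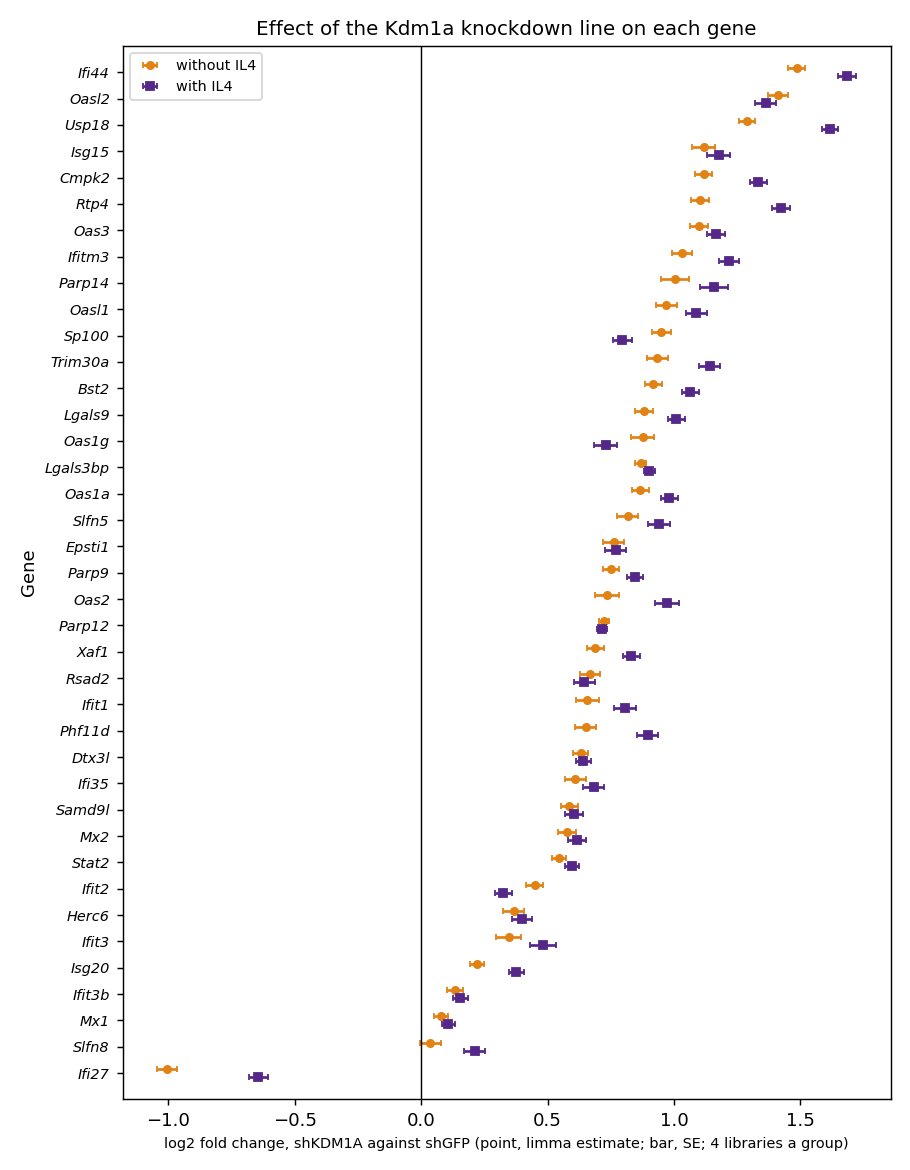
Each row is a gene, and the horizontal axis gives the log2 fold change of shKDM1A against shGFP cells with its standard error, as circles without IL4 and squares with IL4 (4 libraries a group). All genes lie to the right of 0 except Ifi27, and Slfn8 without IL4 lies within its error of 0.

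Among the genes that recognise viral RNA, the oligoadenylate synthetase family is named for enzymes that make the messenger that switches on RNase L. All 6 of its members rose, by 0.74 to 1.41 on the log2 scale. Oasl2, a mouse OAS-like enzyme, was read at 7.21, 7.25, 7.36 and 7.22 in shGFP and at 8.73, 8.68, 8.65 and 8.65 in shKDM1A control libraries. The groups were far apart, with a log2 fold change of 1.41 (SE 0.04, adjusted p = 1.6e-13). Oas3, the synthetase with the longest protein of the family, was read at 10.98, 11.03, 11.02 and 10.97 in shGFP and 12.08, 12.11, 12.13 and 12.08 in shKDM1A libraries. Its shKDM1A libraries all lay about 1 unit above the shGFP libraries, and its change was 1.10 (SE 0.03, adjusted p = 5.3e-13). Oas2 was read at 10.18, 10.02, 10.12 and 10.07 in shGFP and 10.85, 10.80, 10.79 and 10.90 in shKDM1A libraries. This was a smaller step, of 0.74 (SE 0.05, adjusted p = 2.2e-09). Oasl1, known to restrain the translation of Irf7, changed by 0.97 (SE 0.04, adjusted p = 1.5e-11). Oas1a and Oas1g changed by 0.87 and 0.88. However, 57.1% of the 50-base stretches of Oas1a and 54.6% of those of Oas1g also occur in another gene. They are shared mostly between Oas1a and Oas1g or with Oas1b, so counts of Oas1a and Oas1g cannot be fully separated. The RefSeq model of Oas1g is a non-coding one.

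The IFIT proteins bind viral RNA with foreign ends. All 4 rose, by 0.13 to 0.66. The largest step was that of Ifit1, with means of 6.93 ± 0.06 in shGFP and 7.59 ± 0.04 in shKDM1A cells (SD, n = 4) and a change of 0.66 (SE 0.04, adjusted p = 4.6e-09). Ifit2 was read at 7.97, 8.10, 8.00 and 8.04 in shGFP and 8.54, 8.44, 8.46 and 8.47 in shKDM1A libraries. Its groups did not overlap, and its change was 0.45 (SE 0.03, adjusted p = 1.3e-08). Ifit3 and Ifit3b changed by 0.35 and 0.13; 51.5% and 45% of their 50-base stretches are shared with another gene, mostly with each other, and both were weakly expressed, at 5.72 and 3.98 in shGFP control cells.

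The effectors at membranes and in nucleotide supply all rose, 7 of 7, by 0.08 to 1.12. Cmpk2, a mitochondrial nucleotide kinase, was read at 8.43, 8.36, 8.36 and 8.40 in shGFP and 9.62, 9.45, 9.44 and 9.50 in shKDM1A libraries, a change of 1.12 (SE 0.03, adjusted p = 3.9e-13). Ifitm3, which blocks virus fusion in endosomes, had the highest level per length of the 39 genes and was read at 12.97, 12.84, 12.88 and 13.05 in shGFP and 13.98, 13.96, 13.98 and 13.95 in shKDM1A libraries. This abundant transcript rose by 1.03 (SE 0.04, adjusted p = 4.2e-12), with 10% of its 50-base stretches shared with Ifitm1, Ifitm2 or a pseudogene. Bst2, the tetherin that holds budding virus at the cell surface, was read at 11.12, 11.09, 11.05 and 11.11 in shGFP and 12.02, 12.01, 11.99 and 12.03 in shKDM1A libraries. It too was higher in every shKDM1A library, by 0.92 (SE 0.03, adjusted p = 4e-12). Rsad2 (viperin), which makes a chain-terminating nucleotide and is a neighbour of Cmpk2, was read at 7.23, 7.06, 7.12 and 7.13 in shGFP and 7.75, 7.76, 7.79 and 7.92 in shKDM1A libraries, a change of 0.67 (SE 0.04, adjusted p = 1e-09). The pair thus rose together, Cmpk2 with the larger estimate. Mx2, a dynamin-like GTPase, was read at 6.31, 6.26, 6.34 and 6.34 in shGFP and 6.91, 6.88, 6.87 and 6.91 in shKDM1A libraries, a change of 0.58 (SE 0.04, adjusted p = 2.3e-09). The exonuclease gene Isg20 was read at 5.57, 5.55, 5.55 and 5.59 in shGFP and 5.76, 5.83, 5.83 and 5.74 in shKDM1A libraries. Its step was small, 0.22 (SE 0.03, adjusted p = 1.2e-05), and its groups did not overlap. Mx1 was the weakest transcript of the 39, with values of 3.63, 3.67, 3.68 and 3.69 in shGFP and 3.68, 3.72, 3.81 and 3.78 in shKDM1A libraries. Its groups overlapped, its estimate was 0.08 (SE 0.03, adjusted p = 0.027), and the call was lost without shGFP control replicate 1 (0.07), without shKDM1A control replicate 3 (0.06) and without shKDM1A control replicate 4 (0.07).

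The ISG15 system attaches a ubiquitin-like protein to other proteins. Isg15, the modifier itself, was read at 7.69, 7.49, 7.62 and 7.63 in shGFP and 8.74, 8.74, 8.72 and 8.70 in shKDM1A libraries, a rise of 1.12 (SE 0.05, adjusted p = 1.2e-11). Usp18, which removes ISG15 and blocks signalling at the interferon receptor, was read at 9.52, 9.58, 9.54 and 9.64 in shGFP and 10.88, 10.83, 10.87 and 10.87 in shKDM1A libraries. Both the modifier and its remover were thus higher in every shKDM1A library, Usp18 by 1.29 (SE 0.03, adjusted p = 1.8e-14). Herc6, the mouse ligase that attaches ISG15, rose less, by 0.37 (SE 0.04, adjusted p = 1.9e-06).

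The PARP enzymes add ADP-ribose to proteins, and DTX3L is the ubiquitin ligase that partners PARP9. All 4 genes rose, by 0.63 to 1.01. Parp14, also known as a cofactor of STAT6, was read at 9.83, 9.94, 9.93 and 9.91 in shGFP and 10.82, 10.92, 10.99 and 10.90 in shKDM1A libraries, and its change was 1.01 (SE 0.05, adjusted p = 3.4e-10). Parp9 and Dtx3l, which stand head to head and overlap by 558 bases on opposite strands, changed by 0.75 and 0.63. The table counted reads on both strands, so reads in the overlap cannot be told apart. Parp12 changed by 0.72 (SE 0.02, adjusted p = 9.5e-14).

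Slfn5 and Samd9l, which restrain growth and translation, rose by 0.82 and 0.59. Slfn5 overlaps the antisense row Slfn5os over 8580 bases, and reads were counted on both strands. Slfn8, a Schlafen gene beside Slfn5, was read at 8.37, 8.55, 8.58 and 8.52 in shGFP and 8.53, 8.51, 8.58 and 8.55 in shKDM1A control libraries. The groups overlapped and the estimate was 0.04 (SE 0.04, adjusted p = 0.54). Shared stretches with Slfn9 and Slfn10-ps make up 15.4% of Slfn8.

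All 5 transcription and nuclear factors rose, by 0.55 to 0.95. Sp100, a component of nuclear bodies, was read at 9.04, 9.07, 9.08 and 9.05 in shGFP and 10.03, 9.90, 9.98 and 10.14 in shKDM1A libraries, a change of 0.95 (SE 0.04, adjusted p = 6.3e-12). Trim30a, a TRIM protein that dampens NF-kB signalling, was read at 9.79, 9.83, 9.97 and 9.74 in shGFP and 10.78, 10.73, 10.79 and 10.75 in shKDM1A libraries. Its change was 0.93 (SE 0.04, adjusted p = 2.7e-11). Phf11d, a PHD finger gene, was read at 9.21, 9.21, 9.28 and 9.23 in shGFP and 9.97, 9.78, 9.94 and 9.85 in shKDM1A libraries, a change of 0.65 (SE 0.04, adjusted p = 3.2e-09), with 13.9% of its stretches shared with related genes. Stat2, the STAT of the interferon complex, and Ifi35 changed by 0.55 and 0.61. Stat2 overlaps Apof on the same strand over 753 bases.

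Among the other induced genes 6 of 7 rose. Ifi44, a gene long used as a marker of interferon exposure, had the largest change of the 39 without IL4. Its values were 10.58, 10.59, 10.61 and 10.62 in shGFP and 12.10, 12.07, 12.08 and 12.10 in shKDM1A libraries, a change of 1.48 (SE 0.03, adjusted p = 1.3e-14). Rtp4, a transporter protein that holds receptors on their way to the membrane, was read at 9.49, 9.41, 9.38 and 9.37 in shGFP and 10.59, 10.47, 10.52 and 10.49 in shKDM1A libraries. It rose by 1.10 (SE 0.04, adjusted p = 9.7e-13). Xaf1, a partner of the apoptosis inhibitor XIAP, was read at 8.01, 7.92, 7.96 and 8.03 in shGFP and 8.70, 8.63, 8.63 and 8.72 in shKDM1A libraries, a change of 0.69 (SE 0.03, adjusted p = 6.1e-11). The galectin genes and their partner rose by 0.88 (Lgals9) and 0.87 (Lgals3bp), and Epsti1 changed by 0.76.

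Ifi27, a gene named for induction by interferon, went the other way. It was read at 11.31, 11.21, 11.25 and 11.33 in the shGFP control libraries and at 10.30, 10.30, 10.23 and 10.26 in the shKDM1A control libraries. It was the third in level per length of the 39 genes in shGFP cells, every shKDM1A library lay below every shGFP library, and the change was -1.005 (SE 0.04, adjusted p = 3.9e-12). The row's RefSeq model is named Ifi27l1 in the mm9 annotation used for the check of shared stretches. None of its 50-base stretches occur in another gene. Ifi27l2a, a row of similar name outside the 39 genes, had an estimate of 1.54 without IL4 and 1.61 with IL4.

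**Figure D2:**
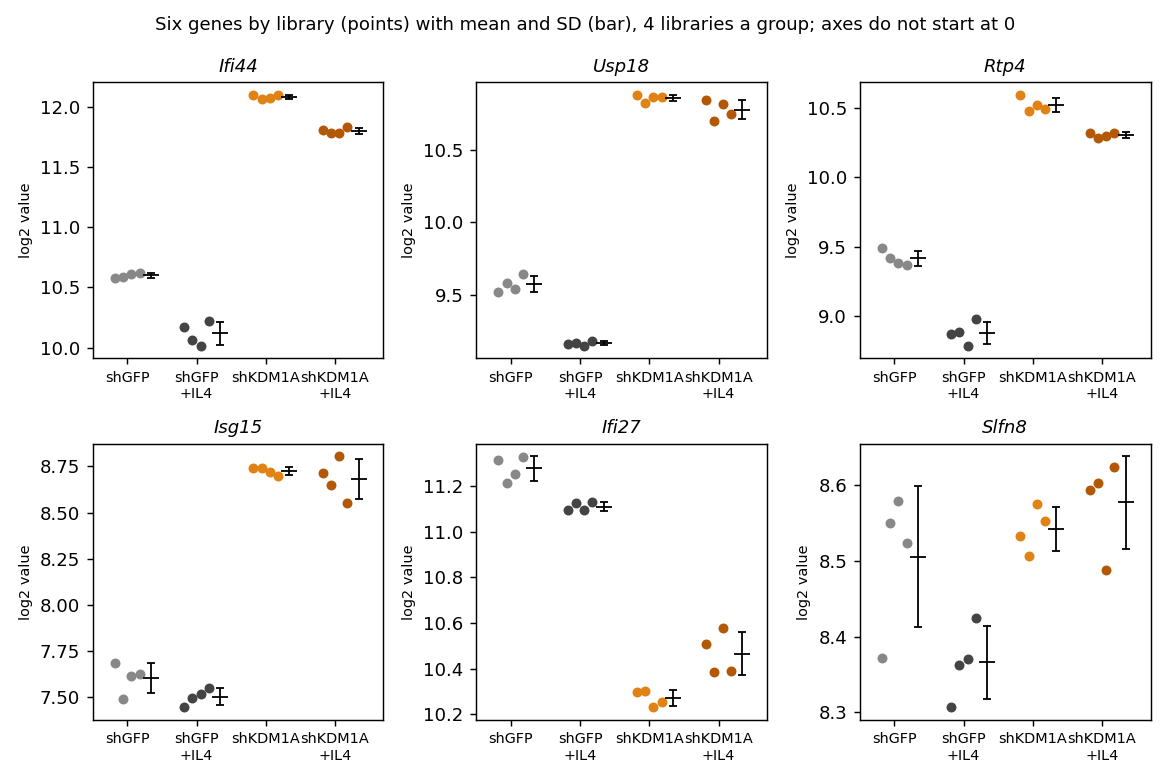
Points are the log2 values of single libraries in the 4 groups for 6 genes, with the mean and SD beside them, and the vertical axes do not start at 0. Ifi44, Usp18, Rtp4 and Isg15 lie higher in all shKDM1A libraries than in all shGFP libraries, Ifi27 lies lower, and Slfn8 overlaps between the lines without IL4.

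The second comparison set the lines side by side after IL4. There 38 of the 39 genes were higher in shKDM1A cells, where 20.9% of all genes tested were called higher, and Ifi27 was again the only lower one, where 19.8% were called lower. The 2 comparisons between the lines use different libraries. Without shKDM1A IL4 replicates 1 and 3, or without 2 and 4, 38 were again higher and 1 lower. In all 38 genes every shKDM1A library lay above every shGFP library, as in 19.0% of all genes. The median log2 fold change was 0.83, and 13 genes reached at least 1. Ifi44 was read at 10.17, 10.06, 10.01 and 10.22 in shGFP and 11.81, 11.78, 11.78 and 11.83 in shKDM1A libraries with IL4, a change of 1.68 (SE 0.03, adjusted p = 2.8e-15). Usp18 followed, at 9.16, 9.17, 9.15 and 9.18 in shGFP and 10.84, 10.70, 10.82 and 10.75 in shKDM1A libraries. The lines did not overlap and the change was 1.62 (SE 0.03, adjusted p = 1.8e-15). Rtp4 was read at 8.87, 8.88, 8.79 and 8.98 in shGFP and 10.31, 10.28, 10.29 and 10.32 in shKDM1A libraries, a change of 1.42 (SE 0.04, adjusted p = 4.6e-14). Oasl2 was read at 7.21, 7.17, 7.29 and 7.36 in shGFP and 8.57, 8.64, 8.59 and 8.68 in shKDM1A libraries, a change of 1.36 (SE 0.04, adjusted p = 2.4e-13). These 4 genes, from 3 branches (a synthetase, the ISG15 system and the other induced genes), had the largest estimates of the 39.

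Cmpk2 was read at 8.15, 8.15, 8.15 and 8.12 in shGFP and 9.51, 9.51, 9.41 and 9.47 in shKDM1A libraries with IL4, a change of 1.33 (SE 0.03, adjusted p = 4.6e-14). Ifitm3 was read at 12.52, 12.53, 12.46 and 12.50 in shGFP and 13.76, 13.66, 13.79 and 13.67 in shKDM1A libraries, a change of 1.22 (SE 0.04, adjusted p = 6.1e-13). Isg15 was read at 7.45, 7.50, 7.52 and 7.55 in shGFP and 8.72, 8.65, 8.80 and 8.55 in shKDM1A libraries, a change of 1.18 (SE 0.05, adjusted p = 6.2e-12). The 3 genes differed between the lines by over 1 unit with IL4 as without it. Oas3 was read at 10.81, 10.72, 10.74 and 10.72 in shGFP and 11.81, 12.00, 11.91 and 11.96 in shKDM1A libraries, a change of 1.17 (SE 0.03, adjusted p = 2.5e-13). Parp14 was read at 9.74, 9.73, 9.66 and 9.67 in shGFP and 10.68, 10.97, 10.80 and 10.98 in shKDM1A libraries, a change of 1.16 (SE 0.05, adjusted p = 6.3e-11). Trim30a was read at 9.57, 9.46, 9.44 and 9.53 in shGFP and 10.67, 10.65, 10.58 and 10.67 in shKDM1A libraries, a change of 1.14 (SE 0.04, adjusted p = 2.3e-12). In Parp14 the shKDM1A libraries spread more with IL4 than without it, but none reached the shGFP range. Slfn8, not called without IL4, was read at 8.31, 8.36, 8.37 and 8.42 in shGFP and 8.59, 8.60, 8.49 and 8.62 in shKDM1A libraries with IL4, a change of 0.21 (SE 0.04, adjusted p = 0.00058). Whether that gap differed from the gap without IL4 was tested as the difference of the IL4 effect, which was 0.18 (SE 0.06, adjusted p = 0.082) and not called. Ifi27 was read at 11.09, 11.12, 11.10 and 11.13 in shGFP and 10.51, 10.39, 10.58 and 10.39 in shKDM1A libraries, and its change of -0.64 (SE 0.04, adjusted p = 8.8e-10) was smaller in size than without IL4.

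The other 27 genes were all called higher in shKDM1A cells with IL4. Bst2 was read at 11.96, 11.77, 11.94 and 11.86 in these shKDM1A libraries and at 10.84, 10.75, 10.81 and 10.86 in shGFP libraries, a change of 1.07 (SE 0.03, adjusted p = 6.8e-13). Xaf1 was read at 8.57, 8.54, 8.63 and 8.53 in shKDM1A libraries with IL4, a change of 0.83. Rsad2 was read at 7.02, 6.93, 6.97 and 6.97 in shGFP libraries with IL4, a change of 0.65. In the oligoadenylate synthetase family Oasl1 rose by 1.09, Oas1a by 0.98, Oas2 by 0.97 and Oas1g by 0.73. The IFIT genes rose by 0.81 (Ifit1), 0.48 (Ifit3), 0.33 (Ifit2) and 0.16 (Ifit3b), and the remaining membrane and nucleotide effectors by 0.62 (Mx2), 0.38 (Isg20) and 0.11 (Mx1). Herc6 rose by 0.40, Parp9 by 0.84, Parp12 by 0.72, Dtx3l by 0.64, Slfn5 by 0.94 and Samd9l by 0.60. The nuclear factors rose by 0.90 (Phf11d), 0.80 (Sp100), 0.68 (Ifi35) and 0.60 (Stat2), and the other induced genes by 1.01 (Lgals9), 0.90 (Lgals3bp) and 0.77 (Epsti1).

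**Figure D3:**
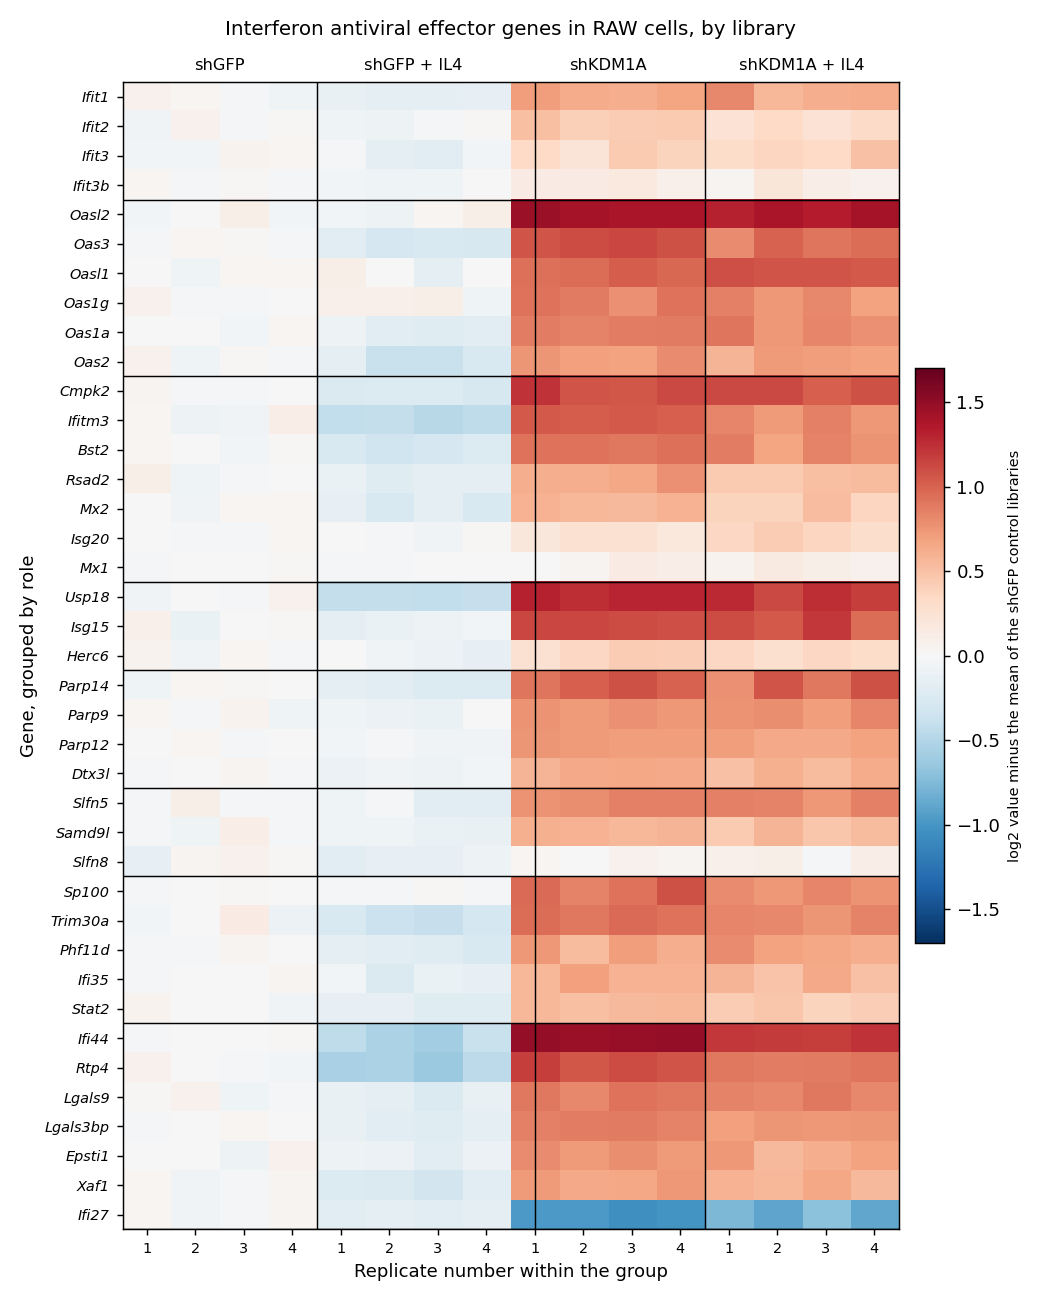
Each row is a gene and each column a library, grouped by line and treatment, and the colour gives the log2 value minus the mean of the 4 shGFP control libraries (red higher, blue lower). The shKDM1A columns are red for nearly all genes, Ifi27 is blue there, and the shGFP columns with IL4 are pale blue for many genes.

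The third comparison asked what IL4 did in the control line. IL4 lowered 25 of the 39 genes in shGFP cells, where 13.7% of all genes tested were called lower, and raised 0 of them by limma, where 13.1% of all genes were called higher. At an unadjusted p under 0.05 the count of raised genes was also 0, since the only estimate above 0 was that of Oas1g (0.05, unadjusted p = 0.33). The median log2 fold change was -0.15, beside 0.00 over all genes, and 38 of the 39 estimates lay below 0. In 25 of the 39 genes every IL4 library lay below every control library, as in 14.4% of all genes. Only 1 of the 39 genes (Rtp4) had a change past 0.5 in size.

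Rtp4 had the largest change with IL4 in shGFP cells, -0.54 (SE 0.04, adjusted p = 1.1e-08). Its values fell from 9.49, 9.41, 9.38 and 9.37 to 8.87, 8.88, 8.79 and 8.98, without overlap. Ifi44 changed by -0.48 (SE 0.03, adjusted p = 1.8e-08), Ifitm3 by -0.43 (SE 0.04, adjusted p = 3.4e-07) and Usp18 by -0.41 (SE 0.03, adjusted p = 4e-08). These 3 genes, also among the 10 with the largest changes between the lines, all had IL4 libraries below all control libraries. Trim30a changed by -0.33 (SE 0.04, adjusted p = 1.4e-05). Oas2 was read at 9.92, 9.72, 9.72 and 9.84 with IL4, a change of -0.30 (SE 0.05, adjusted p = 0.00014), and Oas3 changed by -0.25 (SE 0.03, adjusted p = 4.3e-05). Thus the synthetases Oas2, Oas3 and Oas1a (-0.17) fell, while Oasl1 (-0.02) and Oasl2 (0.00) were not called. Bst2 was read at 10.84, 10.75, 10.81 and 10.86 with IL4, a change of -0.28 (SE 0.03, adjusted p = 1.3e-05). Cmpk2 changed by -0.24 (SE 0.03, adjusted p = 5.2e-05), and Xaf1, read at 7.75, 7.74, 7.67 and 7.80 with IL4, by -0.24 (SE 0.03, adjusted p = 3e-05). Mx2 (-0.20), Rsad2 (-0.16), Phf11d (-0.20), Parp14 (-0.20), Stat2 (-0.17), Lgals3bp (-0.17), Ifi27 (-0.17) and Lgals9 (-0.16) fell by 0.16 to 0.20. All 7 of the other induced genes fell, beside 1 of 4 IFIT genes, Ifit1 (-0.15). The smaller calls of Ifit1, Ifi35 (-0.13), Epsti1 (-0.12), Slfn5 (-0.12), Slfn8 (-0.14) and Samd9l (-0.10) were lost in some fits. Those of Samd9l (adjusted p = 0.049) and Slfn5 (adjusted p = 0.047) stood at the threshold. These were also lost in fits without a shKDM1A library, which enters this comparison only through the spread. Of the 16 fits that left out 1 library the call was lost in 13 for Samd9l, 12 for Slfn5, 7 for Epsti1, 3 each for Ifi35 and Slfn8, and 2 for Ifit1. The 14 genes not called had estimates of -0.10 to 0.05. Of these, Parp9 was called lower in 2 of the 16 fits, and Dtx3l and Isg15 in 1 each.

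In shKDM1A cells IL4 lowered 13 of the 39 genes, where 13.5% of all genes tested were called lower, and raised 2, Isg20 and Ifi27, where 13.6% were called higher. The median log2 fold change was -0.06. In 12 genes every IL4 library lay below every control library, as in 12.7% of all genes. Ifi44 fell from 12.10, 12.07, 12.08 and 12.10 to 11.81, 11.78, 11.78 and 11.83, a change of -0.28 (SE 0.03, adjusted p = 1.1e-05). Ifitm3 changed by -0.24 (SE 0.04, adjusted p = 0.00018), Rtp4 by -0.22 (SE 0.04, adjusted p = 0.00031) and Oas3 by -0.18 (SE 0.03, adjusted p = 0.0008). Rsad2 was read at 7.58, 7.58, 7.65 and 7.67 with IL4, a change of -0.18 (SE 0.04, adjusted p = 0.0025). Viperin was thus called lower with IL4 in both lines. Sp100, which was not called in shGFP cells (-0.01), was read at 9.03, 9.03, 9.09 and 9.05 in shGFP and 9.87, 9.79, 9.89 and 9.83 in shKDM1A libraries with IL4, and changed by -0.17 (SE 0.04, adjusted p = 0.0026) in shKDM1A cells. Mx2, at 6.18, 6.05, 6.16 and 6.06 in shGFP and 6.70, 6.69, 6.84 and 6.69 in shKDM1A libraries with IL4, changed by -0.16 (SE 0.04, adjusted p = 0.003) in shKDM1A cells. Ifit2, at 7.96, 7.95, 8.01 and 8.05 in shGFP and 8.28, 8.36, 8.28 and 8.35 in shKDM1A libraries with IL4, changed by -0.16 (SE 0.03, adjusted p = 0.0014) in shKDM1A cells. Sp100 and Ifit2 were the 2 genes called lower in shKDM1A and not in shGFP cells; the differences of their IL4 effects were -0.16 (SE 0.05, adjusted p = 0.091) and -0.12 (SE 0.05, adjusted p = 0.13), neither called. The others lowered were Bst2 (-0.13), Lgals3bp (-0.13), Stat2 (-0.12), Trim30a (-0.12) and Xaf1 (-0.10), the last 2 of which lost their call in 7 and 5 of the 16 fits without 1 library. Bst2 (-0.07), Xaf1 (-0.07) and Trim30a (-0.14) also lost theirs without shKDM1A IL4 replicates 2 and 4, and Trim30a (-0.10) without 1 and 3. Other genes gained a call in fits without 1 library. These were Epsti1 (5 fits), Usp18 (3), Samd9l (2), Dtx3l (1) and Parp12 (1) as lower and Oasl1 (2) as higher. Without replicates 1 and 3 Oas1a (-0.11), Oas1g (-0.17), Usp18 (-0.14) and Epsti1 (-0.14) were also called lower. Without 2 and 4 Parp14 (-0.17), Dtx3l (-0.11) and Samd9l (-0.13) were. Isg20 was read at 5.92, 6.00, 5.93 and 5.86 with IL4 in shKDM1A cells, a rise of 0.14 (SE 0.03, adjusted p = 0.0017), and at 5.57, 5.53, 5.51 and 5.58 in shGFP cells. Ifi27 rose by 0.19 (SE 0.04, adjusted p = 0.00099), by 0.12 without shKDM1A IL4 replicates 1 and 3 and by 0.27 without replicates 2 and 4, and was called in both. With those pairs left out IL4 lowered 16 and 13 of the 39 genes in shKDM1A cells and raised 2 in each case. Ifi27 was called lower with IL4 in shGFP cells and higher in shKDM1A cells. The 24 genes not called had estimates of -0.11 to 0.10.

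**Figure D4:**
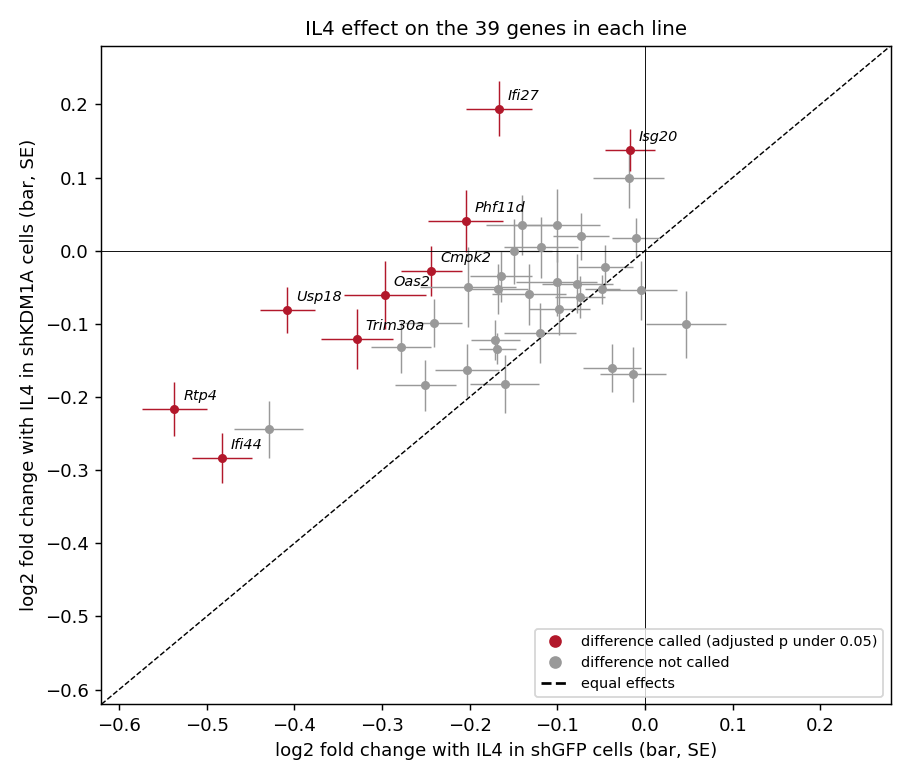
Each point is a gene, with the log2 fold change by IL4 in shGFP cells on the horizontal and in shKDM1A cells on the vertical axis, bars giving standard errors and the dashed line equal effects. 33 of the 39 points lie above the line, and the 9 genes whose difference was called are named and drawn in red.

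The difference of the IL4 effect between the lines was tested directly, as the effect in shKDM1A minus that in shGFP cells. It was called above 0 for 9 of the 39 genes, where 3.56% of all genes tested were called so, and below 0 for 0 of the 39 by limma, where 2.57% of all genes were. At an unadjusted p under 0.05 by limma, 16 genes had a difference above 0 and 3 below 0. The share of all genes at that threshold was not taken. The median difference was 0.12, beside 0.00 over all genes, and 33 of the 39 estimates were above 0, beside 6326 of all 12905. Ifi27 differed most, by 0.36 (SE 0.05, adjusted p = 0.00078), with opposite signs in the 2 lines. Usp18 differed by 0.33 (SE 0.04, adjusted p = 0.00039) and Rtp4 by 0.32 (SE 0.05, adjusted p = 0.0017). In Usp18 the IL4 effect was -0.41 in shGFP cells and -0.08 in shKDM1A cells, and in Rtp4 it was -0.54 and -0.22. Phf11d was read at 9.07, 9.05, 9.02 and 8.98 in shGFP and 10.04, 9.92, 9.89 and 9.86 in shKDM1A libraries with IL4, a difference of the IL4 effect of 0.25 (SE 0.06, adjusted p = 0.025). Oas2, at 10.68, 10.82, 10.81 and 10.78 in shKDM1A libraries with IL4, differed by 0.24 (SE 0.07, adjusted p = 0.044). Cmpk2 differed by 0.22 (SE 0.05, adjusted p = 0.017), Trim30a by 0.21 (SE 0.06, adjusted p = 0.045), Ifi44 by 0.20 (SE 0.05, adjusted p = 0.025) and Isg20 by 0.16 (SE 0.04, adjusted p = 0.034). The 30 genes not called had differences of -0.16 to 0.19. For 8 of the 9 called genes, all but Isg20, IL4 lowered the transcript in shGFP cells. The calls of Ifi27, Usp18, Rtp4 and Cmpk2 were kept in all 16 fits without 1 library. Oas2 and Trim30a lost theirs in 12 of the 16 and Isg20 in 8. Over the 16 fits their estimates ran from 0.21 to 0.28 (Oas2), 0.16 to 0.24 (Trim30a) and 0.13 to 0.18 (Isg20). A call above 0 was gained by Ifitm3 in 4 of the 16, Slfn8 in 2 and Bst2 in 1. Without shKDM1A IL4 replicates 1 and 3, 5 genes were called above 0 (Ifi27 at 0.28, Usp18, Rtp4, Cmpk2 and Parp14, the last at 0.27). Oas2 (0.26), Trim30a (0.23), Phf11d (0.21), Ifi44 (0.21) and Isg20 (0.16) lost their calls there. Without replicates 2 and 4 of that group 12 were called above 0, Ifi27 at 0.44 among them, and 1, Ifit2, below 0 (-0.16). Oas2 (0.21) and Trim30a (0.19) lost their calls there. Phf11d lost its call without shKDM1A control replicate 4 (0.23), and Ifi44 without shGFP control replicate 4 (0.19) and without shGFP IL4 replicate 2 (0.18). Without shGFP IL4 replicate 2 the number of genes called above 0 was 5, and without shKDM1A control replicate 2 a gene, Sp100, was called below 0 (-0.19). With the replicate number as a block in the model, 6 of the 39 genes were called above 0, beside 397 of all 12905.

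The genes of the pathway that feeds these effectors were read from a list of 15 ligands, receptors and signalling proteins. Of the ligands, Ifnb1 lay at -0.20 to -0.19 on group average in all 4 groups and did not pass the filter, and Ifna1, Ifna2, Ifna4 and Ifna5 were listed at 0 in every library. Of the 10 genes tested 5 were higher and 3 lower in shKDM1A cells without IL4, beside 19.7% and 18.4% of all genes tested. With IL4 3 were higher and 4 lower, beside 20.9% and 19.8% of all genes. Of the 3, Ifnar1 (0.08) lost its call in 3 of the 16 fits without 1 library, and also without shKDM1A IL4 replicates 1 and 3 and without 2 and 4. Irf7, the amplifying factor, had the largest change, from 9.67, 9.72, 9.71 and 9.73 in shGFP to 11.96, 11.93, 11.90 and 11.96 in shKDM1A control libraries, which is 2.23 (SE 0.02, adjusted p = 1.3e-18). With IL4 it was 2.30 (SE 0.02, adjusted p = 4.5e-19). Irf9, the DNA-binding partner of the STATs, changed by 0.42 (SE 0.02, adjusted p = 3.1e-10) without and 0.56 (SE 0.02, adjusted p = 8.6e-12) with IL4. The receptor subunits went in different directions without IL4, Ifnar1 by 0.09 (SE 0.03, adjusted p = 0.01) and Ifnar2 by -0.15 (SE 0.03, adjusted p = 0.00034). Irf3, the factor that first induces interferon, was lower, at -0.20 (SE 0.03, adjusted p = 4.6e-05), and so was the phosphatase gene Ptpn6, at -0.07 (SE 0.02, adjusted p = 0.011). Tyk2 was higher without IL4 (0.20, SE 0.03, adjusted p = 3.8e-05), and Jak1 (0.06) and Socs3 (-0.06) were not called.

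IL4 raised 4 and lowered 1 of the 10 genes in shGFP cells, beside 13.1% and 13.7% of all genes tested, and raised 6 and lowered 1 in shKDM1A cells, beside 13.6% and 13.5%. Of the 6, Socs3 (0.16) lost its call in 13 and Ptpn6 (0.07) in 3 of the 16 fits without 1 library, and without shKDM1A IL4 replicates 1 and 3 the calls of Socs3 (at 0.08 there), Ptpn6 (0.06) and Irf3 (0.07, beside 0.11 with all libraries) were lost. The gene lowered in shKDM1A cells was Tyk2 (-0.17, SE 0.03, adjusted p = 0.00035). Socs1, an inhibitor of JAK kinases induced by many cytokines, rose by 0.70 (SE 0.05, adjusted p = 3e-08) in shGFP and by 0.37 (SE 0.05, adjusted p = 5.4e-05) in shKDM1A cells. Its values with IL4 were 6.50, 6.53, 6.60 and 6.39 in shGFP and 6.45, 6.36, 6.30 and 6.25 in shKDM1A libraries. The difference of the IL4 effect was -0.33 (SE 0.07, adjusted p = 0.015), the only one called below 0 on this list. Between the lines Socs1 was higher in shKDM1A cells without IL4 (0.17, SE 0.05, adjusted p = 0.019) and lower with it (-0.17, SE 0.05, adjusted p = 0.018). The first call was lost without shKDM1A control replicate 2 (0.13), and the second without shGFP IL4 replicate 3 (-0.13) and without shKDM1A IL4 replicate 4 (-0.14), as also without replicates 2 and 4 of that group (-0.13). Irf9 fell with IL4 in shGFP cells (-0.18, SE 0.02, adjusted p = 1.8e-05), with a difference of the IL4 effect of 0.14 (SE 0.03, adjusted p = 0.018), called above 0, a call lost without shKDM1A IL4 replicates 1 and 3 (0.14). Both receptor subunits rose slightly with IL4 in both lines, by 0.11 to 0.17.

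As a summary per library, the values of the 39 genes were averaged on the log2 scale, as a description with no test. The average was 8.90, 8.89, 8.91 and 8.90 in the shGFP control libraries and 8.76, 8.72, 8.71 and 8.75 in the shGFP libraries with IL4. It was 9.62, 9.60, 9.62 and 9.62 in the shKDM1A control libraries and 9.56, 9.54, 9.55 and 9.55 in the shKDM1A libraries with IL4. The 4 groups did not overlap, in the order shKDM1A control, shKDM1A with IL4, shGFP control and shGFP with IL4. The knockdown line stood 0.717 above the control line without IL4 and 0.816 with it, and IL4 moved the average by -0.165 in shGFP and by -0.0658 in shKDM1A cells. Within groups the average had an SD of 0.0051 to 0.0230 (n = 4).

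Per length (log2 value minus log2 of the transcript length in kilobases), the level in shGFP control cells ran from 13.57 for Ifitm3, 11.41 for Bst2, 10.88 for Ifi27 and 10.71 for Lgals3bp down to 2.97 for Ifit3b and 2.20 for Mx1. Ifit3b and Mx1 thus stood at the weak end of the 39. Across the 39 genes the mean level and the change in shKDM1A cells without IL4 had a Pearson r of 0.393, or 0.624 without Ifi27, given as a description over genes that share the same 16 libraries. The narrowing of changes at low levels, seen over all genes, moves the same way, and its part was not tested.

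**Figure D5:**
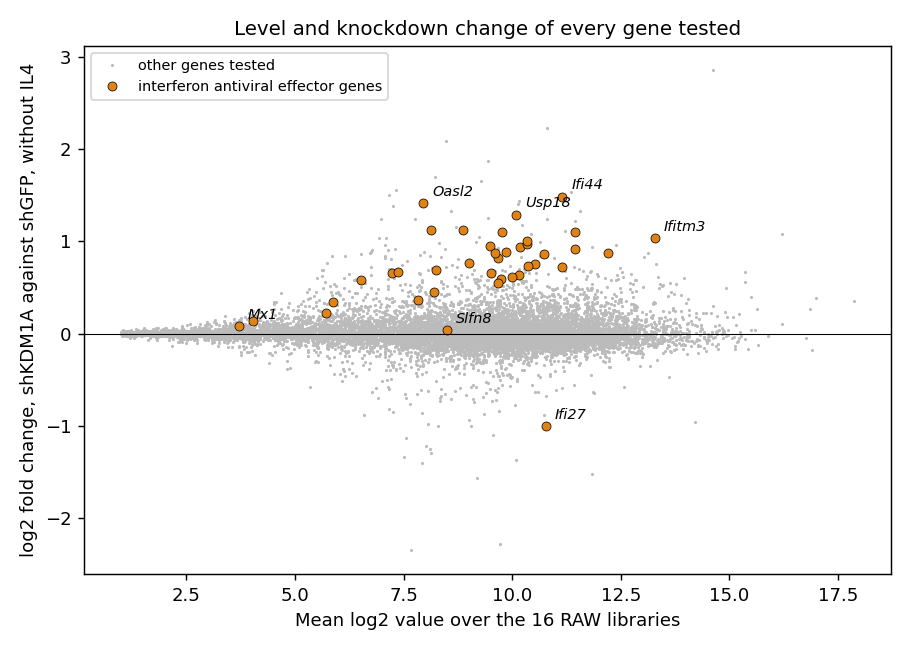
Each point is 1 of the 12905 genes tested, with its mean log2 value over the 16 libraries on the horizontal and the log2 fold change of shKDM1A against shGFP cells without IL4 on the vertical axis; the 39 antiviral effector genes are the large orange points. They lie above 0 over the whole range of levels, Ifi27 excepted, and the changes of all genes narrow towards the weakly expressed end.

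On the mm9 genome 19 of the 39 genes lay in 7 runs of neighbours no more than 100000 bases apart. The longest were Ifit2, Ifit3, Ifit3b and Ifit1 on chr19:34625184-34724499 and Oas2, Oas3, Oas1g and Oas1a on chr5:121180342-121357534. Neighbours within a run could differ in size of change. On chr11:82765604-82834312 Slfn5 rose by 0.82 in shKDM1A cells without IL4 beside an uncalled 0.04 for Slfn8, and on chr16:97668644-97782506 Mx2 rose by 0.58 beside 0.08 for Mx1. Genes with and without the ISRE core in the RefSeq window covered overlapping ranges. Without IL4 the 15 genes with a match ran from 0.04 to 1.12 (median 0.87) and the 16 without from 0.22 to 1.48 (median 0.71).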

How the data were processed

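The RAW cell RNA-seq libraries (4 groups of 4) were aligned by the authors to mm9, with HISAT2 and Bowtie2 named in the study's methods, and counted over exons on both strands with HOMER. The deposited values are log2 expression values per gene, made per the file headers through HOMER and DESeq2; the transformation is not named, decimals are written with commas, and 8488 of 25094 rows are listed at 0 in all 16 libraries. The deposited comparison columns (each gene's log2 fold change between groups with its raw and adjusted p, all that the BMDM table holds) were not used. Depth was 17554721 to 27782568 tags per library, which limits the precision of weakly expressed genes. Samples were grouped by their titles. limma 3.58.1 (R 4.3.3) was fitted to 1 model of 4 group means over the 12905 genes that reached 1 or more in 4 or more of the libraries, and p-values were adjusted by Benjamini-Hochberg per comparison. The 39 genes, the lists and the tests were chosen with earlier results of these data known. Values per library were printed for each gene that was among the 10 called genes with the largest absolute changes in any of the comparisons, also where it was not among them in the comparison described, and other called genes were named. Mx1 and Slfn8 were added to these after their values were seen. Alternatives were other filters, only the groups compared, a replicate block, a trended prior variance, quantile normalization, centring each library on its median, a minimum change of 0.5, and leaving out each library. Leaving out pairs of shKDM1A IL4 libraries and the promoter search for STAT sites were added after the data were seen. Promoters are RefSeq's on GRCm38.p6, and gene positions and overlaps are on mm9, with 50-base stretches compared between GENCODE M1 transcripts. One further gene first placed on the pathway list was left out of it for a reason that does not depend on its values and is not reported here.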

Additional observations from a re-analysis of the deposited data

Results flagged for a closer look

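The difference of the IL4 effect between the lines, shKDM1A minus shGFP, passed the test for 9 of the antiviral effector genes and 2 genes of the pathway list. It was 0.2363 for Oas2, 0.2162 for Cmpk2, 0.1554 for Isg20, 0.3265 for Usp18, 0.2456 for Phf11d, 0.2081 for Trim30a, 0.3608 for Ifi27, 0.1992 for Ifi44 and 0.3204 for Rtp4. It was 0.1406 for Irf9 and -0.3348 for Socs1.

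A library stood apart from the other 3 of its group in 9 of 164 sets of 4 values tested, measured as its gap to the nearest library divided by the range of the group, with 0.829 as the limit. Chance alone marks about 1 in 20 such sets. In Oas1g the ratio was 0.837 in shGFP control cells, where replicate 1 was at 9.25 and the others at 9.15 to 9.17. It was 0.906 for Oas1g in shGFP cells with IL4, where replicate 4 was at 9.11 and the others at 9.26 to 9.28. Mx2 had 0.933 in shKDM1A cells with IL4 (replicate 3 at 6.84, the others at 6.69 to 6.70). Dtx3l had 0.883 in shKDM1A control cells (replicate 1 at 10.46, the others at 10.53 to 10.54). Slfn5 had 0.983 in shGFP control cells (replicate 2 at 9.40, the others at 9.27) and 0.947 in shKDM1A cells with IL4 (replicate 3 at 10.03, the others at 10.15 to 10.16). Epsti1 had 0.956 in shGFP cells with IL4 (replicate 3 at 8.49, the others at 8.59). Lgals3bp had 0.845 in shKDM1A cells with IL4 (replicate 1 at 12.55, the others at 12.59). The average over the 39 genes had 0.936 in shKDM1A control cells, where replicate 2 was at 9.60 and the others at 9.62.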

How the results depend on the processing

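With a log2 fold change of at least 0.5 also required, IL4 lowered 1 of the 39 genes in shGFP cells and 0 in shKDM1A cells, raised 0 in shKDM1A cells, and 0 had a larger IL4 effect in shKDM1A than in shGFP cells. No share of all genes at that limit stands beside these counts, so whether they are few is not shown. The counts of higher and lower genes between the lines stayed within 1.5 times under every alternative run, and no gene changed sign with a call. The median of the 39 genes in place of their mean gave 9.4091, 9.1889, 10.0965 and 10.0379 for shGFP control, shGFP with IL4, shKDM1A control and shKDM1A with IL4, and the average of the last group was 9.5574 with median centring and 9.5438 with quantile normalization. Leaving out 1 library gave 5 to 9 genes called above 0 and 0 to 1 below 0 for the difference of the IL4 effect, 21 to 25 lowered by IL4 in shGFP cells, 11 to 15 lowered and 2 to 3 raised in shKDM1A cells, and 36 to 37 higher in shKDM1A cells without IL4. Leaving out shKDM1A IL4 replicates 1 and 3 together, chosen after the data were seen, gave 5 genes above 0 and 0 below 0 for that difference, and leaving out 2 and 4 gave 12 and 1. Replicate numbers did not pair the samples (correlations of same-numbered deviations from -0.343 to 0.273, and 6 of 16 libraries closest to their own number), and with the number as a replicate block 37 and 38 genes were higher in shKDM1A cells without and with IL4, 25 and 13 lower with IL4 in shGFP and shKDM1A cells, and 6 had a difference above 0. Limiting the fit to the groups compared was not run for the difference of the IL4 effect, which needs all 4 groups. Low levels limit what can be said of Mx1, Ifit3b, Isg20 and Ifit3, the 4 genes with a mean under 6 in shGFP control cells. Their changes may be understated on the deposited scale.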
